A study of Caenorhabditis elegans with 2 samples.

Results

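The genes described here encode the Mad, Max and Mondo-like basic helix-loop-helix proteins of the nematode Caenorhabditis elegans. They are mdl-1 (Mad-like), mxl-1, mxl-2 and mxl-3 (Max-like) and mml-1 (Myc and Mondo-like), 5 of 19973 nuclear protein-coding genes. The names were taken as given and each was matched by symbol in the Ensembl gene models of the WBcel235 assembly, the same genome as ce11. The family was chosen by measured values, namely the number and ranks of UNC-130 peaks around mdl-1, so peak numbers and ranks at these genes are given as a description, with no test. UNC-130 is a forkhead transcription factor of the FoxD class. Its binding was measured by chromatin immunoprecipitation followed by sequencing (ChIP-seq) in whole L1 larvae, male and female pooled, with the age labelled as unknown. Both libraries came from strain OP77, genotype unc-119(ed3) III; wgIs77, which carries an inserted transgene for UNC-130 fused to eGFP. They are 2 biological replicates of this single group, and the antibody label names unc-130 while the description names the eGFP fusion. A control is named in the labels but is not used here, and whole animals mix all larval tissues.

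Proteins of this family bind DNA as dimers, through a basic region and a helix-loop-helix followed by a leucine zipper, and their best known site is the palindromic E-box CACGTG. In C. elegans MDL-1 pairs with MXL-1, and MML-1 pairs with MXL-2. The MML-1 and MXL-2 pair promotes long life in several long-lived mutants, and MDL-1 and MXL-1 act in the opposite direction in genetic tests. MXL-3 represses lysosomal lipase genes in fed animals, where it opposes HLH-30, the worm counterpart of TFEB. The gene mdl-1 is also known as a target that DAF-16 activates when insulin signalling is low.

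The peaks were read from 4 deposited ce11 lists. The optimal list holds the 2631 peaks left by the authors' threshold on the irreproducible discovery rate (IDR), a measure of how far replicates rank a peak alike, and the pooled list holds 30000 candidate peaks called on both replicates together. The list of replicate 1 holds 30000 candidates and that of replicate 2 holds 25234. The last 3 lists include background by design, and all 2631 optimal peaks were the 2631 highest of the pooled list. Ranks below go by the signal value that the authors' peak caller gave each peak, 1 being the highest. Signal values are compared only within a list, and ranks are set side by side between replicates as a description. The files hold no read counts, so the depth of either library is unknown. All coordinates are ce11 and count from 1, and positions are given from the annotated 5′ end of the gene.

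UNC-130 summits were crowded around mdl-1, fewer around mxl-3 and mml-1, and absent from the optimal list around mxl-1 and mxl-2. Within 5000 bp of the gene body, the optimal list held 8 summits for mdl-1, 2 for mxl-3, 2 for mml-1 and 0 for both mxl-1 and mxl-2. At least 1 optimal summit was found for 3 of the 5 genes, against 30% of all protein-coding genes. At least 2 were found for the same 3 genes, against 7.49% of all genes. At least 8 were found for 3 genes of the genome (0.015%), of which mdl-1 was 1. Within 2000 bp the numbers were 6 for mdl-1, 1 for mxl-3 and 2 for mml-1, and 19.5% of all genes had at least 1. Within 1000 bp they were 4, 0 and 1, and 15.2% of all genes had at least 1. For mxl-3 and mml-1 the number depended on the list. Within 5000 bp of mxl-3, the 2631 highest peaks of replicate 1 held 4 summits (best rank 892) and those of replicate 2 held 3 (best rank 1023), and for mml-1 they held 2 and 1. Nothing is read from the shares of genes, because the peak number of mdl-1 led to the choice of the genes.

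**Figure D1:**
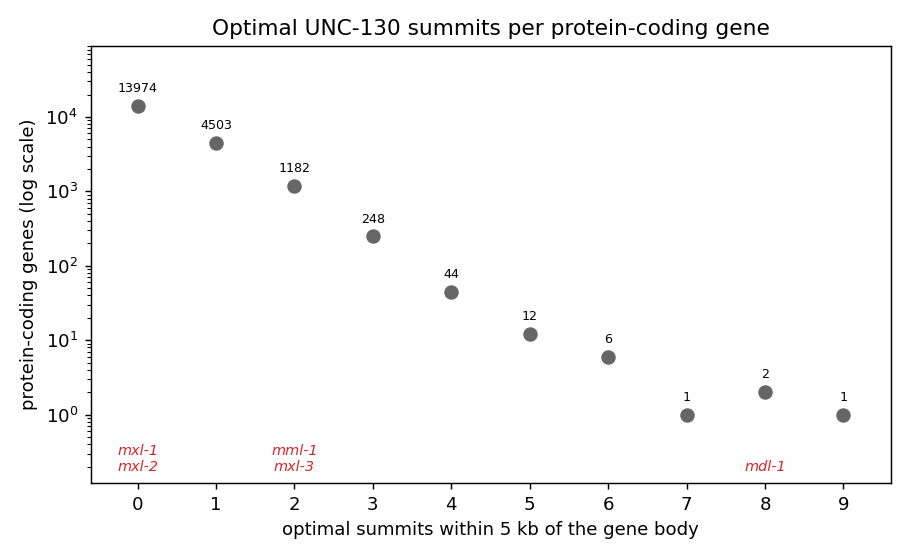
Number of protein-coding genes (log scale) by the number of optimal summits within 5 kb of the gene body, with the count above each point and the 5 genes in red under their own number. Most genes (13974) have 0, as do mxl-1 and mxl-2, while mdl-1 is 1 of the 2 genes with 8.

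The gene mdl-1 (WBGene00003163, chromosome X 6742351 to 6743899, plus strand, 1549 bp, 3 exons) encodes the Mad-like partner of MXL-1. It stands alone, with 9049 bp to the next protein-coding gene upstream, R03E9.2, and 3396 bp to the next one downstream, the anion transporter gene abts-4. Its 8 optimal summits lay 4498, 3155, 1127, 563 and 113 bp upstream of the 5′ end and 688, 1686 and 3380 bp downstream of it. Of these, 6 were intergenic. The summit at 688 bp lay in the last intron of mdl-1. The summit at 1686 bp lay 138 bp past the annotated 3′ end, inside R03E9.10, a non-coding RNA gene on the other strand. For all 8, the nearest protein-coding 5′ end was that of mdl-1 itself.

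The sequences under the summits are shown where they hold one of the sites discussed below. Each line gives a summit with 50 bases to either side, read 5′ to 3′ on the strand of the gene from the WBcel235 genome. Capitals mark every match to CACGTG, or to TGTTTNC on either strand, a pattern that covers common forkhead sites.
mdl-1, summit 3155 bp upstream (chrX:6739146-6739246, plus strand): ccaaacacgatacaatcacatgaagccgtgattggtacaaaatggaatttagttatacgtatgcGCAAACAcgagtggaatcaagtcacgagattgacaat
mdl-1, summit 1127 bp upstream (chrX:6741174-6741274, plus strand): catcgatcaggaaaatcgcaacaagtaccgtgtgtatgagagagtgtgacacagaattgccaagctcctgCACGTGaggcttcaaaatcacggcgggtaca
mdl-1, summit 563 bp upstream (chrX:6741738-6741838, plus strand): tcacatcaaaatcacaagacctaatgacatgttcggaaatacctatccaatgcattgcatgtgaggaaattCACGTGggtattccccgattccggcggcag
mdl-1, summit 113 bp upstream (chrX:6742188-6742288, plus strand): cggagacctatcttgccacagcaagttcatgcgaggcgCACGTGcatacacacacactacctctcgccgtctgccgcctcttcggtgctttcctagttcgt
mdl-1, summit 1686 bp downstream (chrX:6743987-6744087, plus strand): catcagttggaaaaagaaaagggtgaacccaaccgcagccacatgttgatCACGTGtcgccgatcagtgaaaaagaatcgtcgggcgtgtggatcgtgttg
mdl-1, summit 3380 bp downstream (chrX:6745681-6745781, plus strand): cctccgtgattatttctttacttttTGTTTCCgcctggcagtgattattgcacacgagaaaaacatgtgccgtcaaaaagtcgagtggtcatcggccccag
mml-1, summit 352 bp upstream (chrIII:7375033-7375133, minus strand): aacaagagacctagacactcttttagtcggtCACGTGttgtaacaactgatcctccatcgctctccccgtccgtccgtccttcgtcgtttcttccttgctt
mxl-3, summit 2213 bp downstream (chrX:13348541-13348641, minus strand): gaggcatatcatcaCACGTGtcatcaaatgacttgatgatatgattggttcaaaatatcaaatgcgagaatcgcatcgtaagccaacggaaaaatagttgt

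The E-box CACGTG lay under many of these summits. It was found within 50 bp of 4 of the 8 optimal summits of mdl-1, and of 6 of the 12 optimal summits of the 5 genes. Among all 2631 optimal peaks the share was 7.98% (210 peaks), and in windows of the same length centred 500 bp to either side of the summits it was 2.38% (125 of 5262). Leaving out the 12 peaks, the share of the other optimal peaks was 7.79%. No test was run on these shares, since the peaks of 1 gene are neighbours and the genes were chosen with results of these data known.

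At mdl-1 the 4 E-boxes found within 50 bp of a summit stood 0 to 21 bp from it. The site at the summit 1686 bp downstream covered the summit base itself, at 0 bp. At the summit 113 bp upstream the nearest base of the site was 7 bp away, and at those 1127 and 563 bp upstream it was 20 and 21 bp away. The summit in the intron had a site 52 bp away, just outside the window. The whole 5000 bp window of mdl-1 held 13 CACGTG sites, or 1.13 per kb, against 0.177 per kb over the genome. As many sites were found in the windows of 0.35% of protein-coding genes, and 9 genes had more per kb. Of the 13 sites, 4 (30.8%) lay entirely within 50 bp of an optimal summit, against 1.28% of all 17729 sites in the genome. Such a share rises with the density of optimal summits, which was 0.693 per kb in this window and 26.2 per Mb over the genome. The number of summits led to the choice of the genes, so no preference for E-boxes is read from this contrast.

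With wider windows the counts at mdl-1 grew. A CACGTG lay within 100 bp of 5 of its 8 summits (62.5%), against 11.0% of all optimal peaks, and anywhere in the peak for 6 of 8 (75%), against 12.0%. Counting genes, mdl-1 was alone in having 4 optimal peaks with a CACGTG within 50 bp of the summit. The only other gene with 3 or more such peaks was acs-11, with 3, a name picked out after its values were seen. Only a gene with many optimal peaks can reach such a count. The peak number of mdl-1 led to the choice of the genes, so its place is a description only. Over the whole optimal list the share with this E-box was 8.29% in the upper 1315 peaks and 7.67% in the lower 1316, 8.55% on the X chromosome and 7.85% on the autosomes.

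Matches to forkhead-like sequence were fewer than E-boxes within 50 bp of the summits, but not over the wider region of mdl-1. TGTTTNC lay within 50 bp of 2 of the 8 summits of mdl-1, those 3155 bp upstream (as TGTTTGC, on the other strand) and 3380 bp downstream (as TGTTTCC). None of the 4 optimal summits of mxl-3 and mml-1 had it in that window. The share over all optimal peaks was 16.3%, and over the flanks 9.31%. The form TGTTTAC was found at 0 of the 12 summits, against 2.24% of all optimal peaks, and TGTTTGC at 1, against 8.59%. No summit of these genes had both TGTTTNC and CACGTG within 50 bp. Within 100 bp, TGTTTNC lay at 4 of the 8 summits of mdl-1 (50%), against 27.5% of all optimal peaks, and anywhere in the peak it lay at the same number, against 32.0%. The whole window of mdl-1 held 17 TGTTTNC sites, or 1.47 per kb, against 1.02 per kb over the genome.

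**Figure D2:**
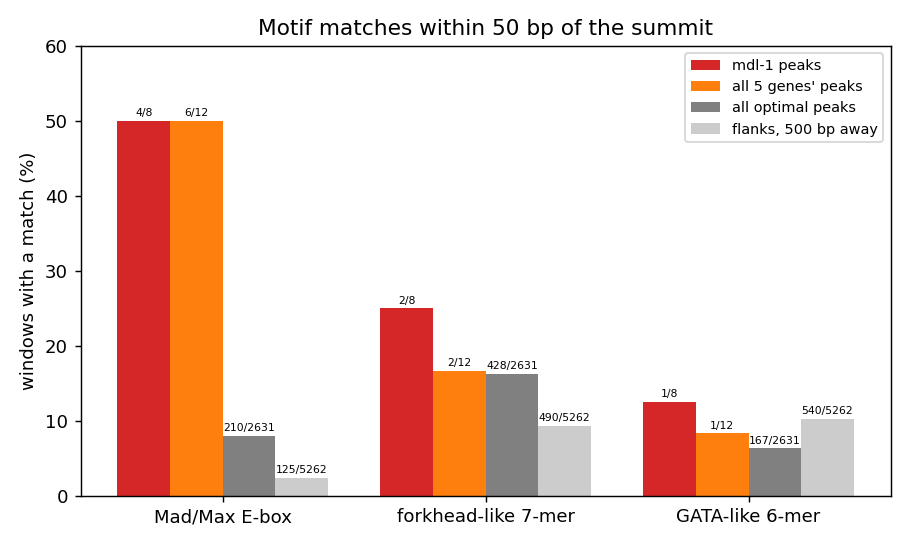
Share of windows reaching 50 bp to either side of their centre that hold a match (y axis, %), for the 8 peaks of mdl-1, the 12 peaks of all 5 genes, all optimal peaks and the flanking windows, with the counts above the bars and 3 motifs along the x axis (the E-box CACGTG, the forkhead-like TGTTTNC and the GATA-like TGATAA). The E-box shares of the mdl-1 peaks (4 of 8) and of all 5 genes' peaks (6 of 12) stand above the 7.98% of all optimal peaks, and the forkhead-like shares are 2 of 8 for mdl-1 and 2 of 12 for all 5 genes, against 16.3% of all optimal peaks.

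Both replicates placed peaks at every optimal position of mdl-1, as they did at 97.5% of all optimal peaks. They ordered the 8 positions of mdl-1 differently. The summit of the overlapping replicate peak lay at most 45 bp from the optimal summit. The position 1686 bp downstream had the highest pooled rank of the 8, at 186, with 94 in replicate 1 and 484 in replicate 2. The position 4498 bp upstream ranked 198 in the optimal list, 258 in replicate 1 and 133 in replicate 2.

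Next in rank, the position 1127 bp upstream ranked 220 in the optimal list, 532 in replicate 1 and 98 in replicate 2, where it was the highest at this gene. In the intron, the position at 688 bp ranked 395 in the optimal list, 254 in replicate 1 and 1040 in replicate 2. The position 563 bp upstream was the most even of the 8, with rank 573 in the optimal list, 669 in replicate 1 and 567 in replicate 2. By rank, the 3 downstream positions and the one 3155 bp upstream stood higher in replicate 1, and the other 4 upstream positions stood higher in replicate 2. The replicate lists differ in length, and as a share of each list the position 563 bp upstream was level, at the top 2.23% in replicate 1 and 2.25% in replicate 2.

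The position closest to the 5′ end, 113 bp upstream, was where the replicates were farthest apart. It ranked 646 in the optimal list, 2438 in replicate 1 and 166 in replicate 2. The ratio of its replicate ranks was 14.7, a size that 4.36% of the optimal peaks found in both lists reached. Over all those peaks the median ratio was 2.32 (quartiles 1.47 and 4.15), and over the 8 peaks of mdl-1 it was 3.02.

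The lowest ranks at mdl-1 were those of 2 positions, 1 on each side of the gene. That 3155 bp upstream ranked 1202 in the optimal list, 1194 in replicate 1 and 2017 in replicate 2. That 3380 bp downstream ranked 1675 in the optimal list, 2060 in replicate 1 and 3722 in replicate 2. As a share of each replicate's list, the 8 positions ran from the top 0.694% ± 0.235 at 4498 bp upstream to the top 10.8% ± 5.57 at 3380 bp downstream (SD, n = 2). Of the 8, 7 were among the 2631 highest of both replicates, a share that was 57.2% over all optimal peaks. The 57.2% takes in the whole optimal list, whereas the 8 ranked no lower than 1675 there, with a median rank of 484. The genes were also chosen by ranks of peaks around mdl-1, so nothing is read from this contrast. Ranks in the replicate lists are no independent check, because the optimal list was made from those lists.

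**Figure D3:**
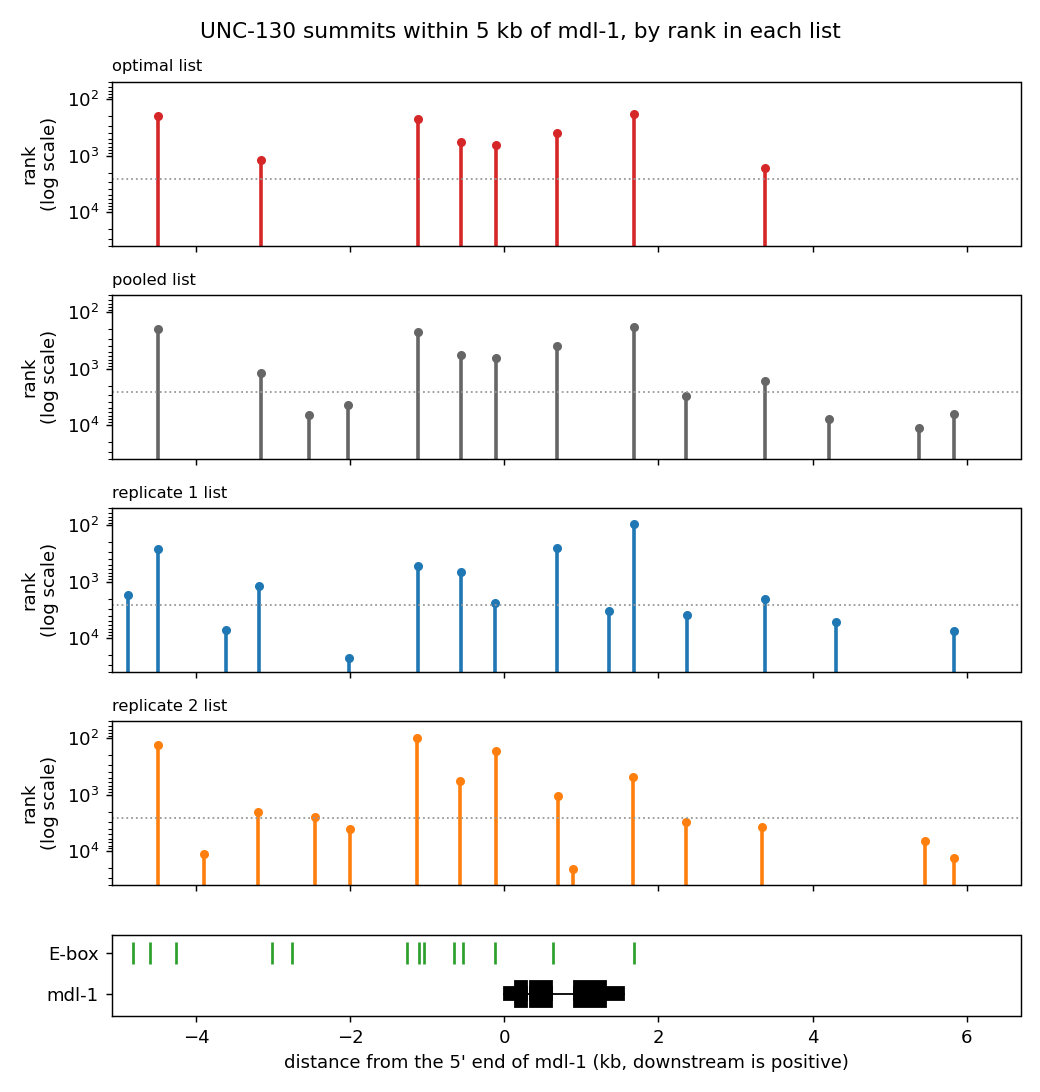
Summits within 5 kb of mdl-1 by distance from its 5′ end (x axis, kb) and rank in each of the 4 lists (y axis, log scale, highest rank on top), with rank 2631 dotted, the gene model in black (coding parts taller) and CACGTG sites as green ticks. The same 8 positions stand above the dotted line in the optimal and pooled lists, and the replicates differ most at the one 113 bp upstream (2438 in replicate 1 and 166 in replicate 2).

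**Figure D4:**
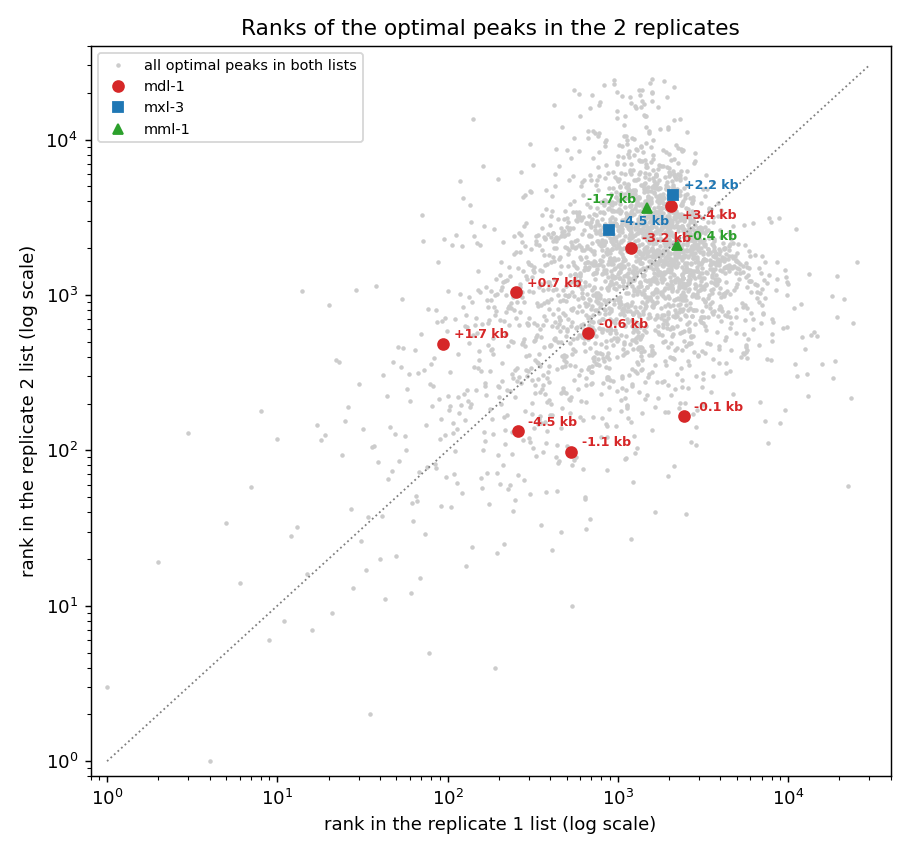
Rank of each optimal peak in the list of replicate 1 (x axis, log scale) and of replicate 2 (y axis, log scale), with all optimal peaks found in both lists in grey and the 12 peaks of mdl-1, mxl-3 and mml-1 in colour, labelled by distance from the 5′ end, and equal ranks dotted. Of the 12, 9 rank within 2631 in both lists, and the mdl-1 peak 0.1 kb upstream is the one farthest from equal ranks.

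Beyond the optimal list, the pooled list held 6 further candidates near mdl-1, for a total of 14, and each replicate list held 15. The highest of the 6 ranked 3066, at 2362 bp downstream, and was found in both replicates at ranks 3846 and 3057. Another, 2543 bp upstream, had a peak in replicate 2 (rank 2475) and none in replicate 1. As many candidates per gene were found for 0.961% of protein-coding genes in the pooled list, 0.606% in replicate 1 and 0.365% in replicate 2. None of the 6 had a CACGTG within 50 bp.

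The crowding went on past the 5000 bp limit. Joining optimal summits that lie at most 5000 bp apart gave 2034 runs over the genome, of which 1624 were single summits. The longest in number was the run at mdl-1, with 12 summits over 14499 bp. Besides the 8 it took in summits 6560 and 5756 bp upstream, ranked 630 and 1361, and summits 7037 and 7939 bp downstream, ranked 386 and 832, which lay in introns of abts-4. The summits 6560 bp upstream and 7939 bp downstream had a CACGTG within 50 bp. Outside the run the next optimal summits were 148762 bp upstream, in an intron of fbxl-4, and 62687 bp downstream.

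Neighbouring summits of mdl-1 were between 450 and 2028 bp apart. The 5 from 1127 bp upstream to 1686 bp downstream spanned 2813 bp, the shortest span of any 5 consecutive optimal summits in the genome, where the median was 122760 bp. For 3 and for 4 consecutive summits mdl-1 came in place 2, with 1014 bp against 881 bp at ego-1 and 1815 bp against 1740 bp at pkg-2. Per kb of window, mdl-1 had 0.693 optimal summits, and no protein-coding gene had more. Since the peak number of mdl-1 led to the choice of the genes, these places and that of its run are a description only.

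The genes most like mdl-1 in the number of optimal summits within 5000 bp all had wider windows than it. They were T28B11.1 with 9, mnk-1 (a kinase of the MAP kinase-interacting family) with 8, pkg-2 (a cGMP-dependent protein kinase) with 7, and Y111B2A.12 and unc-130 itself with 6. Their windows were 30.3, 22.6, 27.3, 24.5 and 12.0 kb, and that of mdl-1 was 11.5 kb. The densities were 0.297, 0.354, 0.256, 0.245 and 0.50 summits per kb, in the same order of genes, against 0.693 for mdl-1. Binding at the native unc-130 locus and at copies of it carried by the transgene cannot be told apart.

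The gene mxl-3 (WBGene00003511, chromosome X 13349639 to 13350804, minus strand, 1166 bp, 4 exons) encodes the Max-like repressor of lipase genes. Upstream it has 10396 bp free of protein-coding genes, and downstream the sterol-sensing domain gene ptr-24 ends 1513 bp away. Its higher optimal summit lay 4546 bp upstream and ranked 1476 in the optimal list, 892 in replicate 1 and 2602 in replicate 2. The other lay 2213 bp downstream of the 5′ end, beyond the gene, and ranked 2472 in the optimal list, 2124 in replicate 1 and 4401 in replicate 2. Both stood higher in replicate 1. The downstream summit was the one with the printed E-box, whose nearest base was 31 bp away.

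Candidates of mxl-3 below the optimal threshold filled its upstream region. The pooled list held 8 summits in its window, as many as for 11.9% of genes, and the 10 in replicate 1 and 9 in replicate 2 were matched by 5.32% and 3.57% of genes. The pooled summit 2854 bp upstream ranked 3096, just under the threshold, although overlapping peaks ranked 1727 in replicate 1 and 1023 in replicate 2. The summits of those 2 replicate peaks were 144 and 4 bp from the pooled one. The summit 309 bp upstream, the closest to the promoter, ranked 4673 in the pooled list and 1397 in replicate 2, and replicate 1 had no peak there. It lay in a non-coding RNA gene, C49F8.5.

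Further pooled candidates of mxl-3 had a CACGTG within 50 bp, the 3 that lay 712, 2854 and 4105 bp upstream. That makes 4 of its 8 pooled summits (50%), against 3.45% of all 30000 pooled candidates. Below the optimal threshold it was 3 of 6, against 3.01% of the 27369 such candidates. The window of mxl-3 held 6 CACGTG sites (0.537 per kb), and as many were found in 7.27% of gene windows.

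The gene mml-1 (WBGene00003378, chromosome III 7370130 to 7374731, minus strand, 4602 bp, 2 transcripts) encodes the Mondo-like partner of MXL-2. The next gene upstream, T20B12.7, runs in the same direction and ends 3119 bp away. Both optimal summits lay in this gap. The one 352 bp upstream ranked 2152 in the optimal list, 2243 in replicate 1 and 2080 in replicate 2, at the top 7.86% ± 0.542 of the replicate lists (SD, n = 2). The ratio of its replicate ranks, 1.08, was the lowest of the 12 peaks. The one 1749 bp upstream ranked 2165 in the optimal list, 1491 in replicate 1 and 3606 in replicate 2. Both ranked among the last 500 of the 2631 optimal peaks.

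The proximal summit of mml-1 held the printed E-box, with its nearest base 14 bp from the summit. The distal one had a CACGTG 75 bp away, outside the window. The 5000 bp window of mml-1 held 4 such sites (0.274 per kb), as many as in 22.3% of gene windows. The pooled list held 10 candidates there, of which 5 lay in coding exons of mml-1 or T20B12.7. Replicate 1 had 11 and replicate 2 had 5, and of the 10 pooled candidates 6 overlapped a peak of replicate 1 only and 1 a peak of replicate 2 only.

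The partner genes mxl-1 and mxl-2 had no optimal summit in their windows. The gene mxl-1 (WBGene00003509, chromosome V 11244839 to 11245926, plus strand, 1088 bp, 2 exons), which encodes the partner of MDL-1, begins 112 bp after the end of pgap-1. Its nearest optimal summit lay 5463 bp upstream of the gene body, just outside the limit. That summit ranked 2154 and stood 45 bp upstream of dvc-1. The pooled list held 5 candidates for mxl-1, the best at rank 8124, and all lay in coding exons of the neighbours ima-1, pgap-1 and mam-4. None of the 5 overlapped a peak in both replicates, as 3 overlapped one in replicate 1 only and 2 one in replicate 2 only. The one at 3998 bp downstream, rank 20122 in the pooled list, had a CACGTG within 50 bp, the single site in the window.

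The gene mxl-2 (WBGene00003510, chromosome III 186949 to 188131, minus strand, 1183 bp, 4 exons), which encodes the partner of MML-1, lies head to head with ubc-20, a ubiquitin-conjugating enzyme gene, with 706 bp between them. Its nearest optimal summit lay 47215 bp away, at hpo-29. Of 5 pooled candidates, the best ranked 4015, at 761 bp upstream and 54 bp inside ubc-20, with rank 10462 in replicate 1 and 4074 in replicate 2. The candidate 173 bp upstream ranked 6509 in the pooled list, 13375 in replicate 1, where the summit lay 159 bp away, and 3492 in replicate 2. Both stood higher in replicate 2, and neither was among the 2631 highest of either list. None had a CACGTG within 50 bp, although the window held 5 such sites. At least 1 pooled candidate was found for all 5 genes, against 92.3% of all genes.

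**Figure D5:**
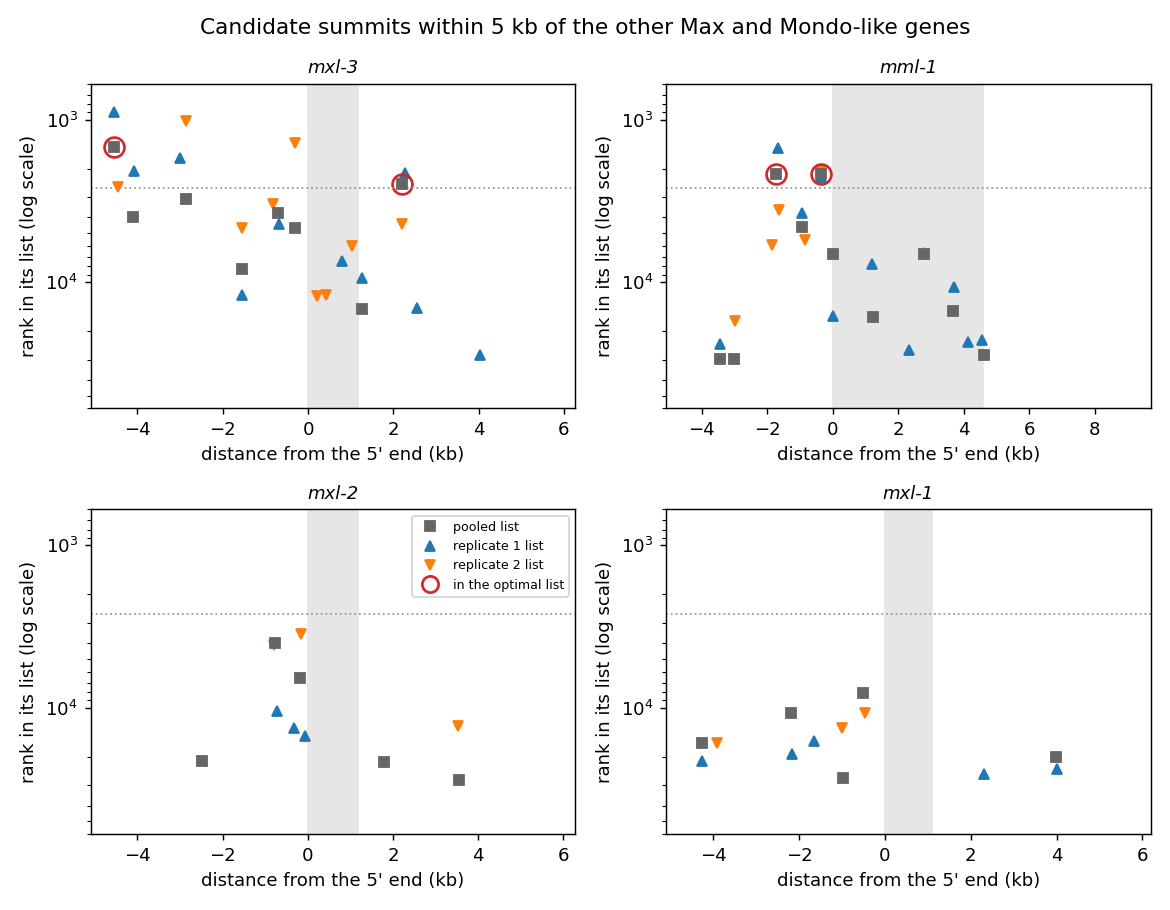
Summits within 5 kb of mxl-3, mml-1, mxl-2 and mxl-1 by distance from the 5′ end (x axis, kb, gene body shaded) and rank in the pooled list and each replicate's list (y axis, log scale, highest rank on top), with rank 2631 dotted and optimal peaks ringed. Only mxl-3 and mml-1 have ringed peaks, 2 each, and all candidates of mxl-2 and mxl-1 lie below the dotted line.

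The genes of the partners in each dimer had different numbers of optimal summits. MDL-1 and MXL-1 are encoded by genes with 8 and 0, and MML-1 and MXL-2 by genes with 2 and 0. Of all protein-coding genes, 70.0% had 0, and the 8 of mdl-1 led to the choice of the genes. The windows of mml-1 and mxl-2 were 14.6 and 11.2 kb. Nothing about the dimers is read from these numbers. The highest 2631 peaks of the replicates gave 9 and 0 for mdl-1 and mxl-1 in replicate 1, and 8 and 0 in replicate 2. For mml-1 and mxl-2 they gave 2 and 0 in replicate 1, and 1 and 0 in replicate 2. At the optimal threshold, the lowest peak of these genes inside the list was that of mxl-3 with signal 24.6 (rank 2472), and the highest outside was that of mdl-1 with signal 20.8 (rank 3066).

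Other helix-loop-helix genes had optimal summits about as often as all genes. Of 36 genes of this and related helix-loop-helix families, without the 5, 12 (33.3%) had an optimal summit within 5000 bp, against 30% of all genes. The median number of summits per gene was 0 in this list and 0 over all genes. By best rank the first 10 were hif-1, hlh-27, hlh-33, hlh-11, hlh-30, aha-1, lin-22, hlh-6, sbp-1 and lin-32. The peak of hif-1, the hypoxia-inducible factor gene, ranked 55 and lay 1988 bp upstream. The MXL-3 antagonist gene hlh-30 had 3 summits, the best an intron summit at rank 571. The AP4-like gene hlh-11 had 6, the best of which (rank 328) lay at the promoter of its neighbour ubc-7. None of the 23 optimal peaks near these genes had a CACGTG within 50 bp, which allows a share of up to 13.0% for counting error alone.

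Genes of the insulin pathway, which acts on mdl-1 through DAF-16, and genes tied to MXL-3, MML-1 and HLH-30 had them in a larger share. Both lists were chosen with earlier results of these data known, so nothing is read from the larger shares. Of 16 insulin pathway genes 9 (56.25%) had an optimal summit within 5000 bp, against 30% of all genes. The median number per gene was 1, against 0 over all genes. By best rank these were smk-1, akt-2, akt-1, ftt-2, daf-16, pdk-1, par-5, sgk-1 and skn-1. The best peaks of smk-1 and par-5 were nearer to the 5′ end of a neighbour. That of smk-1 (rank 283) lay 374 bp upstream of vps-60, and that of par-5 (rank 1897) lay 62 bp upstream of M117.3. The FoxO gene daf-16 had 5 summits, the best 2212 bp upstream at rank 1335, and the kinase gene akt-2 had 1, 743 bp upstream at rank 938. The insulin receptor gene daf-2 had none. Of 16 peaks near these genes, 1 had a CACGTG within 50 bp (6.25%), near smk-1.

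Of 23 lysosomal lipase, autophagy and related genes, 14 (60.9%) had an optimal summit, against 30% of all genes, and the median number per gene was 1, against 0. The first 10 by best rank were vha-15, lipl-2, hlh-30, let-363, lipl-5, lgg-1, lgg-2, daf-15, atg-18 and nhr-49. The best peaks of several belonged by position to a neighbour: that of vha-15 (rank 26) was 385 bp upstream of rpl-11.2, and that of lipl-2 (rank 44) lay 315 bp upstream of ztf-7. At their own promoters lay those of lgg-1, an Atg8 homologue (886 bp upstream, rank 893), and atg-18 (228 bp upstream, rank 1108). The replicates did not rank the lgg-1 peak alike. It ranked far below the 2631 highest peaks of replicate 1 and near the top of the list of replicate 2. The atg-18 peak was among the 2631 highest of both. None of the 18 peaks had a CACGTG within 50 bp. An allowance of 3 counts in 18 would be 16.7%, again taking the peaks as independent. An intron summit of skn-1 also lay within 5000 bp of bec-1 and was counted in both lists, and hlh-30 was in 2 lists. No test was run on these lists, which were chosen with earlier results of these data known.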

How the data were processed

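ChIP-seq peak lists of 2 biological replicates of L1 larvae were used, in narrowPeak layout on ce11. Per the labels' descriptions, fragments were 150 to 350 bp. Per the notes deposited with the files, each replicate's list came from its own alignments and 1 further file, shared by both, whose kind the notes leave unnamed. The pooled list came from both alignments, and the optimal list from the pooled and replicate lists. Neither aligner nor peak caller is given in the sources used here, and the same holds for the IDR cut-off. Column 7, the signal value per peak that the authors deposited, was used only to rank peaks within a list (tied peaks share the best of their ranks). A summit is the peak start plus the summit offset, counted from 1, and the ce10 lists were not used. No peak passed the end of a chromosome of the reference (0 in each of 4 lists).

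With Python 3.11.15, pandas 2.3.3 and NumPy 2.4.6, summits within 5000 bp of each gene body (Ensembl release 115, 19973 protein-coding genes) were counted, and the counting was tested on simulated summits. A replicate peak matched with at least 1 bp of overlap. Motifs were searched on both strands within 50 bp of summits. They were the E-box CACGTG (1 form of the loose CANNTG), the forkhead-like TGTTTNC (with its form TGTTTAC and its form TGTTTGC), the GATA-like TGATAA, and GAGA. Named genes were the 5, neighbours nearest to their summits, the 5 genes closest to mdl-1 in number of optimal summits (ties by the nearest best rank), and the first 10 of each list by best rank. The genes and lists were chosen with earlier results of these data known, the lists from general knowledge. With 1 group there was no contrast and no test. Alternatives were the window, the threshold, each replicate alone, the overlap and the motif width.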

Additional observations from a re-analysis of the deposited data

How the results depend on the processing

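mdl-1 had the most summits of the 5 genes, and mxl-1 and mxl-2 had 0, under all 7 alternatives to the window, anchor, threshold and replicates. The smaller windows, the 5′ end as anchor and the upper 1315 optimal peaks could not raise a 0, so they say nothing on mxl-1 and mxl-2. No window wider than 5000 bp was set, and the nearest optimal summit of mxl-1 lay 5463 bp from its gene body. With a window of 2000 bp mxl-3 had 1 summit. With 1000 bp mdl-1 had 4, mml-1 had 1 and mxl-3 had 0, and the helix-loop-helix and lipase lists had 5 and 8 genes with a summit. In the upper 1315 optimal peaks mdl-1 kept 7, while mxl-3 and mml-1 had 0. Without replicate 1 or without replicate 2, in the 2631 highest peaks of the other, mdl-1 had 8 to 9, mxl-3 had 3 to 4, mml-1 had 1 to 2, and mxl-1 and mxl-2 had 0. Within 100 bp of the summit, or anywhere in the peak, TGTTTNC was found at 4 of the 12 peaks, all at mdl-1 (4 of 8, against 27.5% and 32.0% of all optimal peaks), and CACGTG at 8 and 9. A CACGTG can only be found more often in a wider window, and the shares over all optimal peaks were higher there too. Counting replicate peaks with summits within 100 bp left 11 of the 12 matched in both. The gene background also depends on the window: at least 1 optimal summit was found for 19.5% of genes within 2000 bp and 15.2% within 1000 bp. No paired analysis was possible because the series has 1 group. Depth is unknown, so a candidate missing from 1 replicate's list was not detected there, which does not show that binding was absent.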

Other observations

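In the windows around the summit the G and C content was 47.2% ± 5.37 at the 8 peaks of mdl-1 (SD over peaks), against 47.3% ± 6.28 over all optimal peaks and 36.5% ± 8.73 in the flanks. The summit 113 bp upstream of mdl-1 was the richest of the 12 in G and C, at 57.4%, a level that 6.77% of optimal peaks reached. The 2 peaks of mxl-3 had 37.6% and 40.6%.

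The loose E-box CANNTG, which many helix-loop-helix dimers can bind, lay within 50 bp of 7 of the 8 summits of mdl-1 and of 10 of the 12 of all 5 genes, against 49.4% of all optimal peaks and 31.7% of flanks. GAGA, on either strand, lay at 10 of the 12, against 76.5% of optimal peaks and 54.2% of flanks. The GATA-type letters TGATAA lay at 1 of the 12, in the intron of mdl-1, against 6.35% of optimal peaks and 10.3% of flanks. Peaks of 1 gene are neighbours, and these shares were not tested.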
